A study of Mus musculus with 58 samples.

Results

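Tnf, Tnfrsf1a, Tnfrsf1b, Tnfsf9, Il6, Il12b, Il10 and Tgfb1 are 8 cytokine and cytokine receptor genes, selected by name from the 47643 genes counted in each microglia library. Each symbol matched 1 Ensembl gene of the count tables. RNA was measured by QuantSeq, a 3′ end sequencing method that yields about 1 read per transcript whatever its length, in 34 libraries that fall into 8 groups and 4 comparisons. The other 24 samples of the series, from cortex, are not analysed here. The study asked how tau and the kinase IKKβ, encoded by Ikbkb and required for canonical NF-κB activation, alter microglia.

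In the first comparison, wild-type primary microglia were treated with full-length tau fibrils at 2 μg/ml for 24 h (tau, n = 4) or with vehicle (vehicle, n = 4). In the second, microglia were taken with CD11b magnetic beads from adult male mice carrying the human P301S tau transgene of the PS19 line, which is driven by the prion promoter (PS19, n = 4), or from non-transgenic mice (NTG, n = 4). Age was 10.98 months for every PS19 mouse, 11.18 months for NTG replicates 1 and 2, and 10.98 months for NTG replicates 3 and 4. In the third, primary microglia of genotype Cx3cr1CreERT2/+; IkbkbCA F/F (IkbkbCA, n = 5), in which Cre releases a constitutively active IKKβ, were compared with Cx3cr1+/+; IkbkbCA F/F microglia (IkbkbWT, n = 5). In the fourth, Cx3cr1CreERT2/+; Ikbkb F/F microglia (Ikbkb-/-, n = 4), in which Cre deletes Ikbkb, were compared with Cx3cr1+/+; Ikbkb F/F microglia (Ikbkb+/+, n = 4). All primary cultures came from neonatal pups, and the cultures of both Ikbkb experiments were given 4-hydroxytamoxifen, controls included. The controls lacked Cre and kept both Cx3cr1 alleles, so Cre, loss of 1 Cx3cr1 allele and recombination cannot be told apart. The sources used here do not say whether the libraries of a group came from separate litters, so the tests measure the spread between libraries, which may in part be technical.

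Tumour necrosis factor (TNF) is made by macrophages and microglia as a membrane protein that is shed by a protease, and it signals through the receptors TNFR1 (Tnfrsf1a) and TNFR2 (Tnfrsf1b). Tnf, Il6 and Il12b are classical NF-κB target genes of activated myeloid cells. Interleukin 10 and TGF-β1 are known for restraining such activation, and TGF-β signalling is required for the mature microglial state.

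The members lie on 7 chromosomes of GRCm38. Tnf (ENSMUSG00000024401) occupies chr17:35199381-35202007 on the minus strand, and Tnfsf9 (ENSMUSG00000035678) lies on the same chromosome at chr17:57105325-57107757 on the plus strand. Tnfrsf1a (ENSMUSG00000030341) is at chr6:125349362-125362484, plus strand, and Tnfrsf1b (ENSMUSG00000028599) at chr4:145213463-145246870, minus strand. Il6 (ENSMUSG00000025746) is at chr5:30013114-30019981, Il12b (ENSMUSG00000004296) at chr11:44400063-44414033, Il10 (ENSMUSG00000016529) at chr1:131019845-131024974 and Tgfb1 (ENSMUSG00000002603) at chr7:25687002-25705077, all on the plus strand. Tnfsf9 shares exon sequence with an antisense non-coding gene, Gm11110, which reached at most 7 counts in a library, and the strand setting of the counting is not given in the sources used here.

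The RefSeq promoter table for GRCm38.p6 held entries for 6 of the 8 members; none was used for Tnfsf9 or Il10. The 250 bases before the start of Tnf, Tnfrsf1b and Tgfb1 are shown for 2 reasons. Among the members with enough counts to be tested after tau, these had the highest fold changes, and they differ in the core elements near the start. Capitals mark the TATA box TATAAA and the GC box GGGCGG, each searched on both strands.
Tnf, minus strand, chr17:35202008-35202257: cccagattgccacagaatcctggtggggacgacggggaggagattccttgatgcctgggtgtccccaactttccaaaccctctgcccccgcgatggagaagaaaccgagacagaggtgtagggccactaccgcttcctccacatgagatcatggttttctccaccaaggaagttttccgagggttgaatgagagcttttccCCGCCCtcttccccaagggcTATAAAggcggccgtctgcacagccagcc
Tnfrsf1b, minus strand, chr4:145246871-145247120: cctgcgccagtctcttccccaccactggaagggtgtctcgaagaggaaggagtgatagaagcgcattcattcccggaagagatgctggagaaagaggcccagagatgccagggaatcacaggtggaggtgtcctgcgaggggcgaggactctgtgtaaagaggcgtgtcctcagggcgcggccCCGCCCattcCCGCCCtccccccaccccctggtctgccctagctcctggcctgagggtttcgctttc
Tgfb1, plus strand, chr7:25686752-25687001: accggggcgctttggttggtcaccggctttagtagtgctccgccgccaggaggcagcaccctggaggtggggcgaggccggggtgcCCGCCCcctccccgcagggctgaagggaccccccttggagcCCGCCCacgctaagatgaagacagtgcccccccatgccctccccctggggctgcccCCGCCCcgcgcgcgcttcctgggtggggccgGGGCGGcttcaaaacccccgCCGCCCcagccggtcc
The Tnf promoter held 1 TATA box, 29 to 24 bases before the start, and 1 GC box. Neither receptor promoter nor that of Tgfb1 held a TATA box, whereas Tnfrsf1b held 2 GC boxes and Tgfb1 held 5. Of 32851 RefSeq promoters of the same length, 12.4% held a TATA box and 32.7% a GC box. The κB consensus matched 1 of the 6 member promoters, that of Il6, 44 to 35 bases before the start (GGGATTTTCC), and matched 3.90% of all promoters. The AP-1 motif TGANTCA also matched only Il6 among the 6, against 6.75% of all promoters. These are matches to letters in a 250 base window and were not tested for binding.

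Libraries held 1672052 to 8349128 reads in genes. Ikbkb and Cx3cr1 were read first as a check of the labels. Ikbkb was at 22.6 ± 2.81 CPM (gene counts scaled to a common library size; SD, n = 4) in Ikbkb-/- and 52.0 ± 4.35 CPM in Ikbkb+/+, and its level fell by 1.20 on the log2 scale (SE 0.12, adjusted p = 6.34e-07). Adjusted p-values here and below are from the quasi-likelihood test of edgeR, adjusted over all genes by the Benjamini-Hochberg method, unless another tool is named. In IkbkbCA, Ikbkb was at 52.8 ± 6.63 CPM (n = 5) against 46.7 ± 7.06 CPM in IkbkbWT (log2 fold change 0.17, edgeR adjusted p = 0.405), and whether reads of the active transgene count towards Ikbkb is not given in the sources used here. Cx3cr1 was lower in both Cre groups, by a log2 fold change of -0.56 in IkbkbCA (adjusted p = 0.00153) and -1.16 in Ikbkb-/- (adjusted p = 1.63e-06, edgeR). One library labelled male, PS19 replicate 1, held 177 CPM of the X-inactivation transcript Xist and 123 CPM of the Y-linked Ddx3y, whereas the other adult libraries held 1.80 to 31.1 CPM of Xist. Ddx3y separated Ikbkb-/- (155 to 173 CPM) from Ikbkb+/+ (35.0 to 69.4 CPM), and it was at 1.15 and 2.04 CPM in IkbkbWT replicates 4 and 5 against 143 to 177 CPM in the other IkbkbWT libraries. The sex composition of the cultures and the genotype therefore cannot be told apart in the Ikbkb-/- comparison.

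All 12 microglia markers were detected in every group, and their summed level was 10654 to 12296 CPM in tau and 4723 to 6385 CPM in vehicle. Markers of neurons (168 to 224 CPM in tau, 337 to 436 CPM in vehicle; 6 of 6 detected) and astrocytes (352 to 411 CPM in tau, 659 to 712 CPM in vehicle; 7 of 7 detected) were lower in tau. Summed markers of border-associated macrophages, like those of microglia, were higher, at 899 to 1086 CPM in tau and 203 to 276 CPM in vehicle. In each group 6 of 7 were detected, with Lyve1 at 0 in tau and Cd163 at 0 in vehicle. Ms4a7 made up most of that difference (mean 904 CPM in tau, 170 CPM in vehicle). Pf4 was at 91.2 and 63.1 CPM and Mrc1 at 16.5 and 13.3 CPM, and each other marker was at 2.74 CPM or less. These differences accompany the values of Tnf, Tnfrsf1b, Tnfrsf1a and Tgfb1 after tau given below, and the part of other cell types in them was not tested. In the adult libraries the 6 granulocyte markers summed to 424 to 2607 CPM in PS19 and 1528 to 2134 CPM in NTG. The 9 lymphocyte markers summed to 3.62 to 16.4 CPM in PS19 and 6.28 to 12.8 CPM in NTG (3 of 9 detected in each). Most of that was Cd79b (means 8.69 and 8.80 CPM), whereas Cd3e, Cd3g and Cd8a were at 0 in every library. In bulk RNA a difference can reflect the number of cells of a type or the RNA per cell, and these cannot be told apart.

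In each culture comparison 4 members could be tested, and in PS19 versus NTG 6, because the others had too few counts for the filter. After tau, Tnf, Tnfrsf1b, Tgfb1 and Tnfrsf1a all rose (4 of 4 tested), where 14.5% of 10408 genes tested were called higher at an adjusted p under 0.05. All 4 tau libraries lay above all 4 vehicle libraries for each of these members, a pattern that 12.6% of all genes tested showed in that direction. No member passed in PS19 versus NTG (0 of 6), a comparison in which edgeR called 0.0707% of 11323 genes. In it, 977 genes had an unadjusted edgeR p under 0.05, among them Tnf, Tnfrsf1b and Il12b. DESeq2 called 95 genes, among them Tnf and Il12b. No member passed in IkbkbCA versus IkbkbWT either (0 of 4), where 14.5% of 11697 genes were called in either direction. Of the 11697 genes, 3217 had an unadjusted edgeR p under 0.05, among them Tnf, Tnfrsf1a and Tnfrsf1b. DESeq2 called 1948 genes, among them Tnfrsf1b. In Ikbkb-/- versus Ikbkb+/+, Tnf fell (1 of 4 tested), where 6.96% of 11242 genes were called lower.

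**Figure D1:**
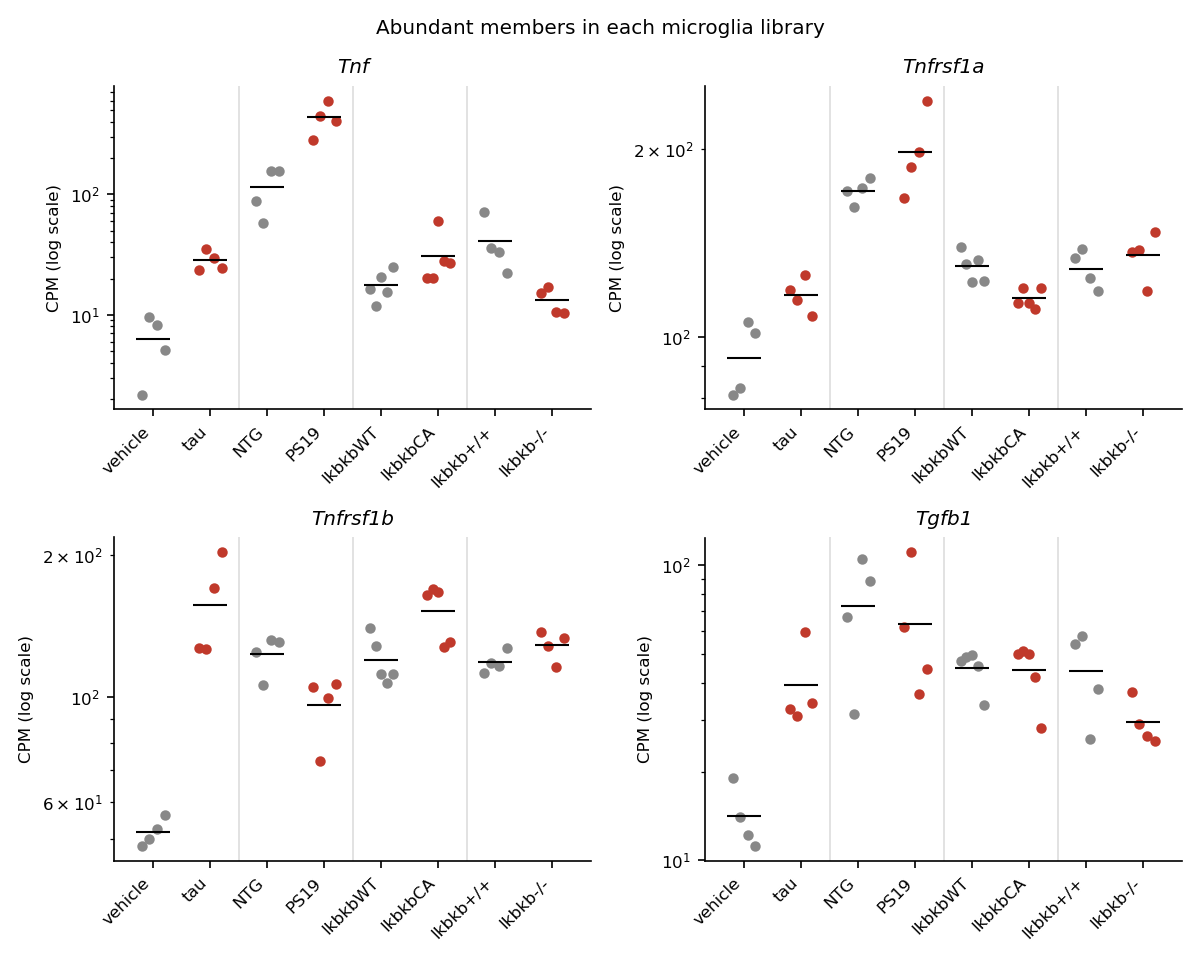
Level of Tnf, Tnfrsf1a, Tnfrsf1b and Tgfb1 in CPM on a log axis in each of 34 libraries, with control groups in grey, treated or altered groups in red and black lines at the group means. Tnf spans 2.17 to 598 CPM, whereas Tnfrsf1a stays between 81.0 and 239 CPM.

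Tnf, the ligand, had the widest range of the abundant members. In tau it was at 23.4, 35.4, 29.6 and 24.6 CPM in replicates 1 to 4, and in vehicle at 2.17, 9.65, 8.28 and 5.08 CPM. The groups did not overlap, and Tnf rose 4.28-fold (log2 fold change 2.10, SE 0.29, edgeR adjusted p = 2.46e-06). Because the microglia markers were also higher in tau, the libraries were rescaled to the sum of the 11 markers other than Cx3cr1, a choice made after the data were seen. On that scale Tnf rose by a log2 fold change of 1.00 (edgeR adjusted p = 0.00308), while the median of all genes moved to -1.15.

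The mean Tnf level of both adult groups was above that of every culture group, although Ikbkb+/+ replicate 1 exceeded NTG replicate 2. PS19 replicates 1 to 4 held 284, 446, 598 and 409 CPM, and NTG replicates 1 to 4 held 87.5, 57.3, 156 and 157 CPM. Every PS19 library was above every NTG library, as for 4.54% of all genes tested, and the log2 fold change of 1.86 (SE 0.32) had an edgeR adjusted p of 0.0769. DESeq2 gave a log2 fold change of 1.87 with an adjusted p of 1.23e-05. Without PS19 replicate 1, which carried Xist reads, the edgeR value was 2.02 (adjusted p = 0.0575), and without PS19 replicate 2 it was 1.87 (adjusted p = 0.0256). The latter was the only call among the 8 fits that left out 1 library, whose adjusted p-values reached 0.289 (without NTG replicate 1). With age as a covariate it was 1.42 (edgeR adjusted p = 0.55). Only NTG replicates 1 and 2 differ in age, so this covariate sets those libraries apart and cannot measure an effect of age. Granulocyte markers summed to 424, 1663, 2607 and 962 CPM in PS19 replicates 1 to 4, the order of their Tnf, and to 1951, 2134, 1784 and 1528 CPM in NTG replicates 1 to 4, the reverse of the order of theirs. The median granulocyte sum was lower in PS19 (1312 CPM) than in NTG (1868 CPM), whereas Tnf was higher in every PS19 library. Astrocyte markers summed to 870 to 1977 CPM in PS19 and 653 to 994 CPM in NTG (7 of 7 detected). Nearly all of that was Slc1a3, with means of 1317 CPM in PS19 and 757 CPM in NTG. The other astrocyte markers had means of at most 20.6 CPM. Of these, Aqp4, Slc1a2 and Gja1 were lower in PS19 and Gfap, Aldoc and Aldh1l1 higher. The part of granulocyte or astrocyte RNA in the Tnf level was not tested.

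With active IKKβ, Tnf was at 20.3, 20.3, 59.8, 27.7 and 26.7 CPM in IkbkbCA replicates 1 to 5 and at 16.3, 11.8, 20.4, 15.6 and 24.9 CPM in IkbkbWT. The groups overlapped, with 3 IkbkbCA libraries above all IkbkbWT libraries, and the log2 fold change of 0.77 (SE 0.31) had an edgeR adjusted p of 0.123. It fell to 0.42 without IkbkbCA replicate 3 (edgeR adjusted p = 0.216). That library had the highest granulocyte marker sum in its group, at 86.0 CPM. The other IkbkbCA libraries held 17.1 to 33.3 CPM and the IkbkbWT libraries 6.73 to 12.2 CPM. Most of the 86.0 CPM was S100a8, which reached 76.5 CPM. No other granulocyte marker exceeded 4.45 CPM in an IkbkbCA library. Mean S100a9 was 2.93 CPM in IkbkbCA and 2.79 CPM in IkbkbWT. The part of granulocyte RNA in the Tnf level was not tested.

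With Ikbkb deleted, Tnf was at 15.3, 17.2, 10.5 and 10.4 CPM in Ikbkb-/- replicates 1 to 4 and at 72.0, 35.8, 33.4 and 22.3 CPM in Ikbkb+/+. No Ikbkb-/- library reached the lowest Ikbkb+/+ library, a pattern that 9.3% of all genes tested showed in that direction. Tnf fell by 1.56 on the log2 scale (SE 0.29, edgeR adjusted p = 0.00109), a level 2.95-fold higher in the controls. The Ikbkb+/+ libraries also held 409, 94.7, 39.0 and 8.23 CPM of granulocyte markers, in the same order as their Tnf, against 8.06 to 12.8 CPM in Ikbkb-/-. Markers of border-associated macrophages (7 of 7 detected in each group) summed to 1941 to 2292 CPM in Ikbkb+/+ and 963 to 1398 CPM in Ikbkb-/-. Of these, Ms4a7 was higher in Ikbkb-/- (mean 586 CPM, against 451 CPM in Ikbkb+/+). Every other marker of the list was lower, with Mrc1 at 410 against 1211 CPM. The part of granulocytes or border-associated macrophages in the Tnf difference was not tested. Without Ikbkb+/+ replicate 1 the fall in Tnf was smaller, with a log2 fold change of -1.19 (edgeR adjusted p = 0.000441).

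The direction of the Tnf difference was thus higher with active IKKβ and lower without Ikbkb, and the difference between these effects was itself tested. It was 2.38 on the log2 scale (SE 0.50, edgeR adjusted p = 0.0101), where 3.12% of 12352 genes were called in either direction. The tau effect on Tnf exceeded that of active IKKβ by 1.26 (SE 0.49, edgeR adjusted p = 0.115; 1.69 with adjusted p = 0.00793 without IkbkbCA replicate 3), and it differed from the PS19 effect by 0.15 (SE 0.45, edgeR adjusted p = 0.899). Ordered by mean level, Tnf ran from PS19 (434 CPM) and NTG (115 CPM) through Ikbkb+/+ (40.8 CPM), IkbkbCA (31.0 CPM), tau (28.3 CPM), IkbkbWT (17.8 CPM) and Ikbkb-/- (13.3 CPM) to vehicle (6.29 CPM). Only PS19 against NTG, and Ikbkb-/- against vehicle, did not overlap among neighbours in that order. The control groups thus spanned 6.29 to 115 CPM, and levels across the 4 experiments also differ in age, culture and batch.

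**Figure D2:**
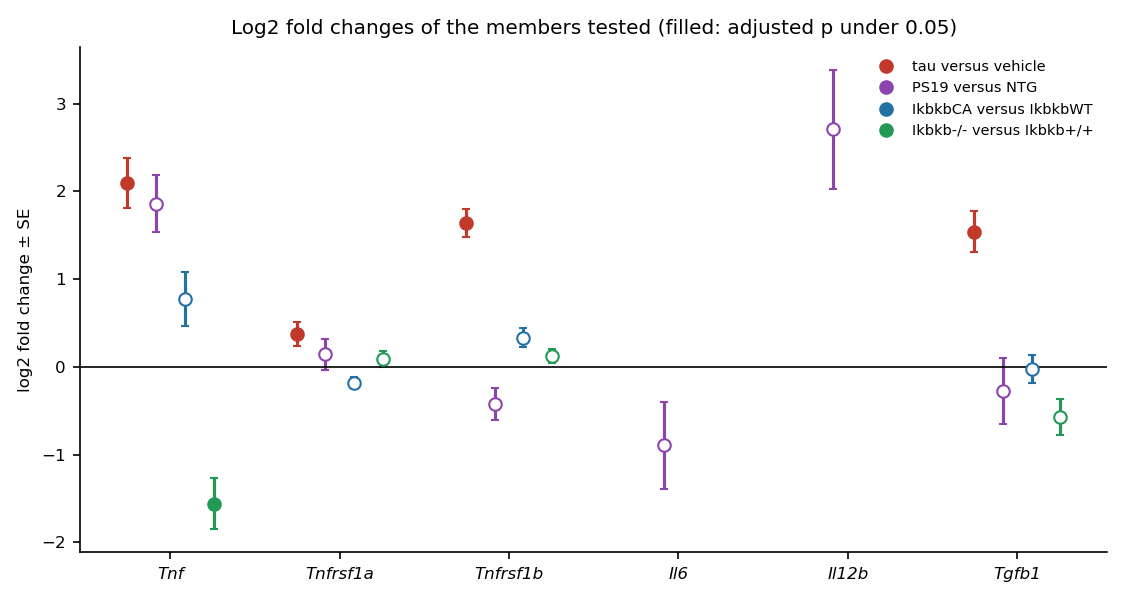
Log2 fold change ± SE of the 6 members that could be tested, from the edgeR fit of each comparison, with filled points for an adjusted p under 0.05. Tnf is above 0 in the first 3 comparisons and below 0 in Ikbkb-/-, and Tnfrsf1b and Tgfb1 pass only after tau.

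Tnfrsf1b, the receptor of myeloid and lymphoid cells, followed a different course from its ligand. It was at 127, 126, 170 and 203 CPM in tau replicates 1 to 4 and at 48.4, 50.0, 52.7 and 56.4 CPM in vehicle. The groups were far apart, and Tnfrsf1b rose 3.11-fold (log2 fold change 1.64, SE 0.16, edgeR adjusted p = 4.02e-09). Scaled to the microglia markers, the log2 fold change was 0.50 (edgeR adjusted p = 0.0142). In adult microglia the values lay the other way, at 73.2 to 107 CPM in PS19 and 106 to 132 CPM in NTG. The PS19 and NTG ranges met, and the log2 fold change of -0.42 (SE 0.18) did not pass (edgeR adjusted p = 0.546).

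In the Ikbkb experiments Tnfrsf1b did not pass the edgeR test. IkbkbCA libraries held 165, 169, 167, 127 and 131 CPM, and IkbkbWT libraries held 140, 128, 112, 107 and 112 CPM. The log2 fold change of 0.33 (SE 0.11) was near the threshold, with an edgeR adjusted p of 0.0564 and a DESeq2 adjusted p of 0.0211, and on the microglia marker scale it turned to -0.18. In Ikbkb-/- (116 to 138 CPM) and Ikbkb+/+ (113 to 127 CPM) the ranges overlapped (log2 fold change 0.12, edgeR adjusted p = 0.369). The tau effect on Tnfrsf1b exceeded the IkbkbCA effect by 1.23 (SE 0.20, edgeR adjusted p = 0.000482; 9.42% of 12841 genes were called in either direction). It exceeded the PS19 effect by 1.97 (SE 0.25, edgeR adjusted p = 1.08e-05; 8.07% of 11852 genes were called in either direction).

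Tnfrsf1a, the receptor found on most cell types, was the steadiest member. Its level was 108 to 125 CPM in tau and 81.0 to 106 CPM in vehicle, and it rose 1.30-fold (log2 fold change 0.38, SE 0.14, edgeR adjusted p = 0.0396). That call was lost in 5 of the 8 fits that left out 1 library, with adjusted p-values up to 0.13, and under total-count scaling (log2 fold change 0.22, adjusted p = 0.234), and on the microglia marker scale Tnfrsf1a was instead called lower (log2 fold change -0.77, adjusted p = 0.000194). It was at 167 to 239 CPM in PS19 and 161 to 180 CPM in NTG (log2 fold change 0.14, edgeR adjusted p = 0.858). In IkbkbCA it held 111 to 120 CPM, below all IkbkbWT libraries (123 to 139 CPM), a pattern shown by 5.85% of all genes tested in that direction. This small difference (log2 fold change -0.18, SE 0.06) had an edgeR adjusted p of 0.0811, and of 0.0246 under total-count scaling. In Ikbkb-/- (119 to 147 CPM) and Ikbkb+/+ (118 to 138 CPM) it was alike in range (log2 fold change 0.09, edgeR adjusted p = 0.594). The tau effect exceeded the IkbkbCA effect by 0.48 (SE 0.14, edgeR adjusted p = 0.0289), which stayed called in 15 of 18 fits that left out 1 library.

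PS19 was the only group in which the mean Tnf level (434 CPM) was above those of Tnfrsf1a (197 CPM) and Tnfrsf1b (96.0 CPM). In NTG the mean Tnf level (115 CPM) was below both Tnfrsf1a (171 CPM) and Tnfrsf1b (123 CPM), and in tau the mean Tnf level (28.3 CPM) was below both Tnfrsf1a (117 CPM) and Tnfrsf1b (156 CPM). Tnfrsf1b exceeded Tnfrsf1a in the mean of tau and IkbkbCA, whereas Tnfrsf1a was the higher of the pair in the other 6 groups. These are levels per transcript end and not protein.

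**Figure D3:**
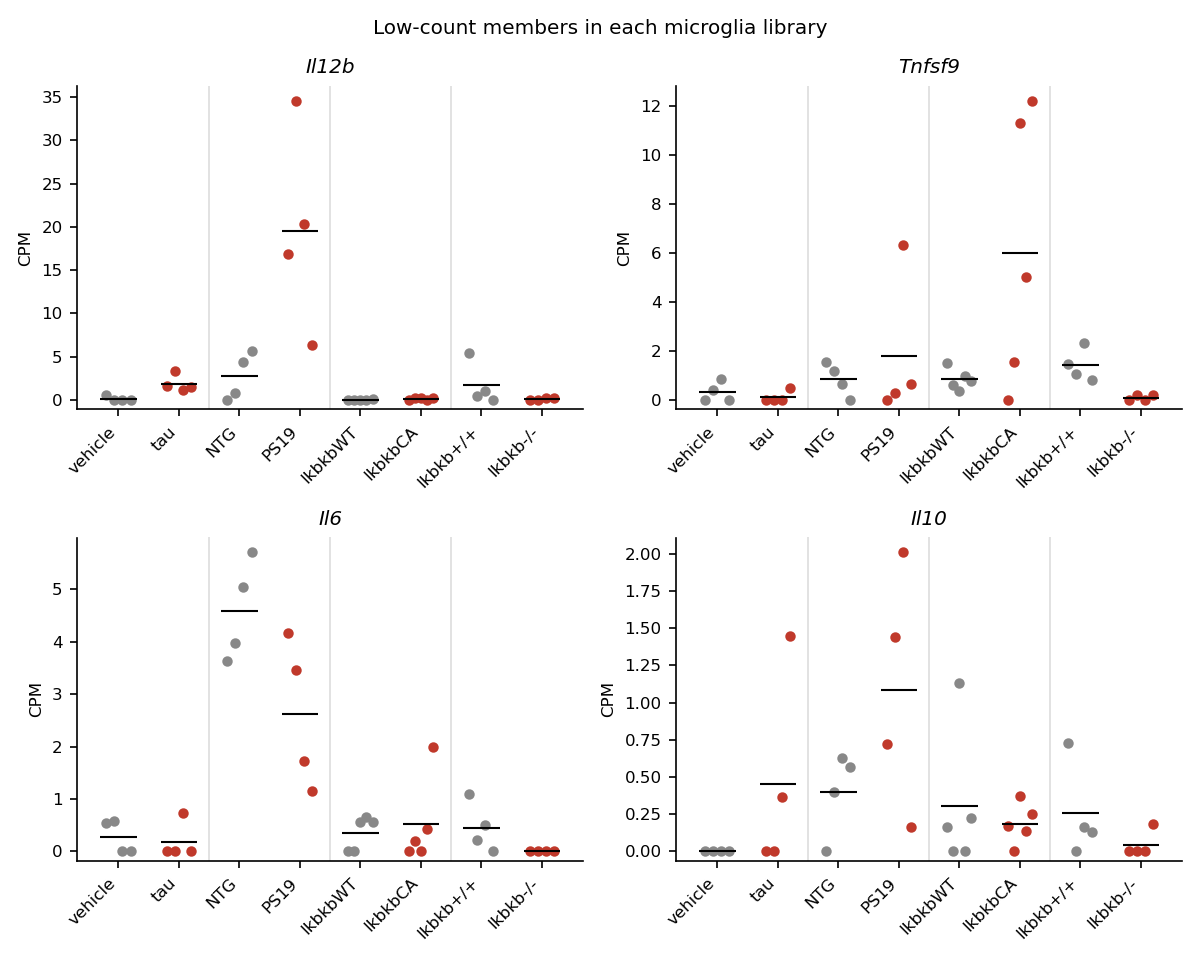
Level of Il12b, Tnfsf9, Il6 and Il10 in CPM on a linear axis in each of 34 libraries, with control groups in grey, treated or altered groups in red and black lines at the group means. Il12b is highest in PS19 and Tnfsf9 in IkbkbCA, where replicate 1 holds no read.

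Tnfsf9, the ligand of the co-stimulatory receptor 4-1BB, was a low-count gene, with at most 61 counts in a library. IkbkbCA replicates 1 to 5 held 0, 8, 61, 36 and 49 counts, and IkbkbWT held 9, 3, 2, 6 and 7 counts. In CPM, 4 of 5 IkbkbCA libraries were above all IkbkbWT libraries and 1 was below them. Summed counts were 6.10-fold higher in IkbkbCA (95% exact interval 4.03 to 9.56, covering counting error only), and an exact two-sided permutation test of log2(CPM + 1) over libraries gave p = 0.111 (n = 5 against 5). With no filter on low counts edgeR gave a log2 fold change of 2.77 (SE 0.76, adjusted p = 0.0412).

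In the deletion experiment Tnfsf9 was at 4, 5, 14 and 6 counts in Ikbkb+/+ and at 0, 1, 0 and 1 counts in Ikbkb-/-. The groups did not overlap, and summed counts were 11.4-fold higher in Ikbkb+/+ (95% exact interval 2.89 to 98.9). The exact two-sided permutation p was 0.0286 (n = 4 against 4), the smallest that 4 against 4 libraries can give. Tnfsf9 passed the filter in neither 2-group Ikbkb fit, but in the fit of all 4 Ikbkb groups and that of 34 libraries. It passed largely through IkbkbCA, the group where it was highest, so these tests are no independent support. In the fit of 34 libraries the log2 fold change was 2.77 in IkbkbCA (edgeR adjusted p = 0.0203). It was -3.26 in Ikbkb-/- (edgeR adjusted p = 0.254). In the 4-group fit the effects differed by 6.05 on the log2 scale (SE 1.47, edgeR adjusted p = 0.0266). That size depends on the prior count, since Ikbkb-/- is near 0, and limma-voom gave 3.94 with an adjusted p of 0.485. It stayed called in 10 of the 15 fits without 1 library that kept the gene. In PS19, 44 of 49 counts were in replicate 3, and in tau and vehicle no library exceeded 2 counts.

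Il12b encodes the p40 subunit shared by interleukins 12 and 23. PS19 replicates 1 to 4 held 93, 120, 142 and 39 counts (16.8, 34.6, 20.4 and 6.38 CPM), and NTG held 0, 2, 21 and 10 counts (0, 0.796, 4.42 and 5.71 CPM). The groups did not overlap in CPM, although PS19 replicate 4 and NTG replicate 4 were close. The log2 fold change was 2.71 (SE 0.68, edgeR adjusted p = 0.24), and DESeq2 gave 2.77 with an adjusted p of 0.00565. Without PS19 replicate 1 the edgeR value was 2.77 (adjusted p = 0.317).

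Cultured microglia held few Il12b reads. Tau replicates held 3, 8, 3 and 3 counts and vehicle held 1, 0, 0 and 0. Each tau library was above each vehicle library, summed counts gave a ratio of 19.5 (95% exact interval 3.06 to 816), and the exact two-sided permutation p was 0.0286 (n = 4 against 4), the smallest possible. Without the filter on low counts edgeR called Il12b after tau (log2 fold change 3.77, SE 1.27, adjusted p = 0.0268). In Ikbkb+/+ the counts were 15, 2, 6 and 0, and in Ikbkb-/- they were 0, 0, 1 and 1, so the groups overlapped. The library with 15 counts was Ikbkb+/+ replicate 1, which also had the highest Tnf and granulocyte marker level of its group. In IkbkbCA and IkbkbWT no library exceeded 1 count.

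Il6, the cytokine that signals through the shared subunit gp130, was found mainly in adult microglia. It held 23, 12, 12 and 7 counts in PS19 (1.15 to 4.17 CPM) and 7, 10, 24 and 10 counts in NTG (3.63 to 5.71 CPM). The PS19 range reached into that of NTG, and the log2 fold change of -0.89 (SE 0.49) did not pass (edgeR adjusted p = 0.646). Il6 reached at most 3 counts in tau and vehicle, 8 in IkbkbCA and 5 in IkbkbWT, and all 4 Ikbkb-/- libraries were at 0 against 3, 1, 3 and 0 counts in Ikbkb+/+. No change could be detected at this depth, since a count of 0 allows up to 3 counts in a library.

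Il10, an anti-inflammatory cytokine, had 52 counts in all 34 libraries together. Its highest library was PS19 replicate 3 with 14 counts, while the other PS19 libraries held 4, 5 and 1 counts and NTG held 0, 1, 3 and 1. It passed the filter in no comparison, and the exact two-sided permutation test over PS19 and NTG gave p = 0.2 (n = 4 against 4).

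Tgfb1, which encodes the latent precursor of TGF-β1, rose after tau together with Tnf and Tnfrsf1b. Tau replicates 1 to 4 held 32.7, 30.9, 59.3 and 34.2 CPM and vehicle replicates 19.0, 13.98, 12.2 and 11.2 CPM. The groups did not overlap, and the level rose 2.91-fold (log2 fold change 1.54, SE 0.24, edgeR adjusted p = 1.17e-05). Without tau replicate 3, the highest library, the log2 fold change was 1.27. The share of reads outside genes was 16.3 to 22.2% in tau and 23.3 to 29.1% in vehicle, and with that share as a covariate the log2 fold change was 0.86 (edgeR adjusted p = 0.167). On the microglia marker scale it was 0.38 (edgeR adjusted p = 0.176).

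Tgfb1 varied widely among adult libraries, from 36.8 to 111 CPM in PS19 and 31.5 to 105 CPM in NTG, and the difference was within that spread (log2 fold change -0.27, SE 0.38, edgeR adjusted p = 0.876). IkbkbCA (28.2 to 51.1 CPM) and IkbkbWT (33.6 to 49.5 CPM) had nearly equal means (log2 fold change -0.03, SE 0.16, edgeR adjusted p = 0.938), a value whose sign changed with the normalization. In Ikbkb-/- it was at 37.1, 29.1, 26.4 and 25.5 CPM, against 54.1, 57.5, 25.7 and 38.1 CPM in Ikbkb+/+. These overlapped, because Ikbkb+/+ replicate 3 lay within the Ikbkb-/- range, and the log2 fold change of -0.57 (SE 0.21) had an edgeR adjusted p of 0.0738. It was -0.77 without that library (adjusted p = 0.00518). The tau effect on Tgfb1 exceeded the IkbkbCA effect by 1.49 (SE 0.30, edgeR adjusted p = 0.00342) and the PS19 effect by 1.72 (SE 0.49, edgeR adjusted p = 0.033), the latter called in 10 of 16 fits that left out 1 library.

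The rest of each pathway was read from lists of 138 other genes, of which 83 could be tested after tau. Among all genes tested, 14.5% were called higher and 15.4% lower after tau, 7.31% higher and 7.16% lower with active IKKβ, and 7.64% higher and 6.96% lower in Ikbkb-/-, and the counts below are to be read against these shares. In the 26-gene list of TNF receptor signalling, 8 of 23 genes tested rose after tau and none fell, with a median log2 fold change of 0.55 beside -0.01 for all genes. Tnfaip3, which encodes the ubiquitin-editing inhibitor A20, rose by a log2 fold change of 2.22 (SE 0.42), Birc3, a ubiquitin ligase, by 1.94 (SE 0.27) and Rnf31, a subunit of the linear ubiquitin ligase, by 1.62 (SE 0.32). With active IKKβ, 6 of 26 rose and 1 fell, with a median of 0.25 beside -0.05 for all genes, and the highest were Tnip1 at 1.60 (SE 0.15), Birc3 at 1.51 (SE 0.12) and Tnfaip3 at 1.35 (SE 0.24). In Ikbkb-/- Tnfaip3 alone of 24 genes passed and fell by 1.56 on the log2 scale (SE 0.27). Several of these genes are NF-κB targets as well as parts of the pathway, and their direction does not say whether signalling rose.

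Genes that release TNF or control its mRNA also moved in more than 1 direction. After tau, 4 of 11 rose and 2 fell (median 0.23), with the TNF-shedding protease Adam17 at a log2 fold change of 1.22 (SE 0.14), the intramembrane protease Sppl2a at 1.34 (SE 0.14) and the Adam17 inhibitor Timp3 at -0.97 (SE 0.15). With active IKKβ, Adam17 (0.76, SE 0.08) and Sppl2a (0.71, SE 0.10) were the 2 of 12 that passed, both higher. In Ikbkb-/- 1 of 12 rose and 2 fell, including Zfp36, whose product tristetraprolin destabilises Tnf mRNA, at -0.98 (SE 0.13).

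Among 16 other TNF superfamily ligands few were expressed. Tnfsf13b, the B cell survival factor BAFF, rose after tau from 0.947 ± 0.74 to 8.51 ± 1.3 CPM (SD, n = 4; log2 fold change 3.46, SE 0.53; 1 of 2 tested), Tnfsf12 was the 1 of 2 that fell with active IKKβ (-0.60, SE 0.15), and Tnfsf10 was the 1 of 3 that rose in Ikbkb-/- (2.75, SE 0.47). Of 25 other TNF receptor superfamily genes, 2 of 11 rose and 4 fell after tau (median -0.57), led by the RANK receptor Tnfrsf11a (1.58, SE 0.15) and by Eda2r (-1.53, SE 0.32) and Tnfrsf19 (-1.29, SE 0.34). None of 12 passed with active IKKβ, and Cd40 was the 1 of 10 that fell in Ikbkb-/- (-1.09, SE 0.28).

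Of the 9 other genes of the IL-12 family, only Ebi3, a subunit of interleukins 27 and 35, had enough counts to be tested in the culture comparisons. After tau it rose from 17.7 ± 1.9 to 82.8 ± 6.6 CPM (SD, n = 4; log2 fold change 2.25, SE 0.17), and it rose by 0.97 (SE 0.07) with active IKKβ. In the IL-6 family 3 of 12 rose and 2 fell after tau, with the kinase Tyk2 at 1.31 (SE 0.20) and the receptor subunits Lifr at -1.01 (SE 0.22) and Il6st, which encodes gp130, at -0.68 (SE 0.16). With active IKKβ 1 of 12 rose and 6 fell (median -0.38), among them Lifr (-1.23, SE 0.29), Il6ra (-0.75, SE 0.12) and Il6st (-0.59, SE 0.10). In Ikbkb-/- 3 of 11 fell, namely the feedback inhibitor Socs3 (-1.59, SE 0.32), Il11ra1 (-0.48, SE 0.09) and Il6st (-0.45, SE 0.14), so that Il6st was lower in both genotypes.

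In the IL-10 list, 4 of 5 genes tested rose after tau (median 0.71), with Bcl3 at 2.82 (SE 0.29), the receptor subunit Il10ra at 2.03 (SE 0.22) and Il10rb at 0.71 (SE 0.14). Il10ra was the 1 of 6 that rose with active IKKβ (0.44, SE 0.13), and Bcl3 the 1 of 6 that fell in Ikbkb-/- (-0.36, SE 0.12). In the TGF-β list, 6 of 18 rose and 3 fell after tau (median 0.02), with the TGF-β-induced matrix protein Tgfbi at 3.89 (SE 0.16), Nrros, which anchors latent TGF-β1 on microglia, at 0.92 (SE 0.14) and the activating integrin Itgb8 at -1.16 (SE 0.24). With active IKKβ 4 of 19 rose and none fell (median 0.15), including Tgfbi (1.29, SE 0.15), the receptor Tgfbr1 (1.05, SE 0.17) and Eng (1.00, SE 0.29). In Ikbkb-/- Nrros fell (-0.37, SE 0.09) and the repressor Ski rose (0.24, SE 0.08), 2 of 18. In PS19 none of the 94 genes of these lists that could be tested passed the edgeR test. All values in these paragraphs on pathway genes are edgeR log2 fold changes, and those called had an adjusted p under 0.05. Neuron and astrocyte marker sums were also lower in tau than in vehicle. The part of other cell types in the changes of pathway genes was not tested.

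**Figure D4:**
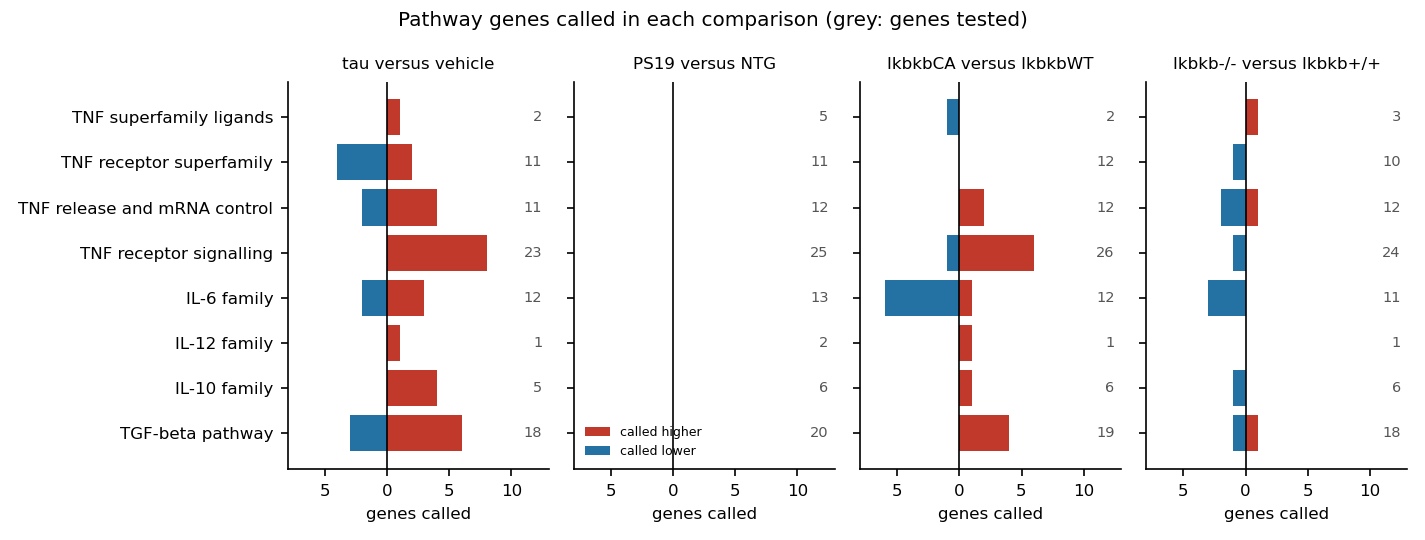
Number of genes of each pathway list called higher (red, to the right) or lower (blue, to the left) by edgeR in each comparison, with the number tested in grey. TNF receptor signalling has 8 genes higher after tau and 6 with active IKKβ, and the IL-6 family has 6 lower with active IKKβ.

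Each member was compared with all 13722 genes that passed the filter over the 34 libraries. The genes most like Tnf by Pearson's r of log2 CPM were Nfkbiz (r = 0.95), Dusp2 (r = 0.94) and Nfkbia (r = 0.93), of which Nfkbiz and Nfkbia encode IκB family proteins. Because adult and cultured libraries form separate clusters, r with Nfkbiz was also taken within the 26 cultured libraries (0.88), within the 8 adult libraries (0.92) and over deviations from the group means (0.81). For Tnfrsf1a the nearest genes were Sipa1 (r = 0.96) and Sh2b3 (r = 0.93), and for Tgfb1 they were Arhgef1, Tfe3 and Nagpa (r = 0.86 to 0.92). For Tnfrsf1b they were Ebi3, Ifngr2 and B2m (r = 0.87 to 0.88), and the likeness with Ebi3 was 0.94 in culture and -0.33 in the adult libraries. The low-count members were nearest to Kdm6b, Nabp1 and Atp1b4 (Il6, r = 0.88 to 0.89), Ifi202b, Itgax and Gm5475 (Il12b, r = 0.82 to 0.86) and Olr1, Ssr3 and Nip7 (Tnfsf9, r = 0.66 to 0.70). Within the cultured libraries these values were 0.34 to 0.67 for Il6, 0.59 to 0.82 for Il12b and 0.65 to 0.74 for Tnfsf9. Within the adult libraries they were 0.56 to 0.89, 0.46 to 0.85 and 0.56 to 0.79. Libraries share group, depth and composition, so these are descriptions. Between members, Tnf and Tnfrsf1a had r = 0.84 over all libraries and 0.27 over deviations from the group means.

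**Figure D5:**
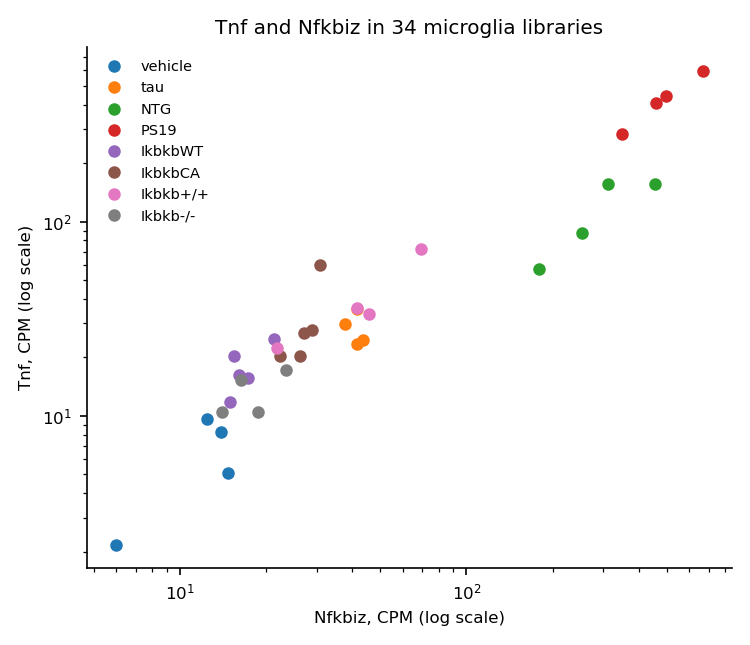
Tnf against Nfkbiz in CPM, both on log axes, with 1 point per library coloured by group. The 8 adult libraries lie at the upper right, with Tnf at 57.3 CPM or more, and vehicle replicate 1 has the lowest value of both genes (2.17 and 5.98 CPM).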

How the data were processed

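RNA of 34 microglia samples was sequenced with the QuantSeq 3′ FWD kit. The authors aligned the reads to GRCm38 (GENCODE genes) with the BlueBee service and deposited raw counts per Ensembl gene. The methods name RSEM, whereas the closing lines of each table have the layout of an HTSeq-style counter. Those lines, which name no gene, were left out. The line for reads outside genes held 12.4 to 38.3% of the reads counted as in genes, outside genes or ambiguous. Use of molecular identifiers is not given in the sources used here, so exact intervals cover counting error only.

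Genes passing filterByExpr (minimum count 10) were tested in R 4.3.3 with edgeR 4.0.16 (TMM, quasi-likelihood test, Benjamini-Hochberg adjustment, called at an adjusted p under 0.05), with only the libraries of each comparison in the fit. Differences between effects were contrasts over 4 groups. CPM used TMM factors over all 34 libraries. Exact permutation tests (two-sided, log2(CPM + 1)) were run for 32 member and comparison pairs. Alternatives used DESeq2 1.42.0, limma 3.58.1 and other scalings, filters, covariates and libraries. The tests were tested on simulated data. Within groups, 56 pairs of libraries were compared, and no pair was identical (chi-square per gene at least 1.93). The members, pathway lists and markers were chosen with earlier results of these data known. Named genes were all members, Ikbkb and Cx3cr1, up to 3 called genes with the largest change per list and comparison, and the 3 nearest genes of each member, of which some are not reported here. GENCODE M21 named 47224 of 47643 genes.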

Additional observations from a re-analysis of the deposited data

Results flagged for a closer look

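The level of each member in each group with more than 3 counts in a library was examined for a library that stands far from the others (46 groups of libraries, of which chance alone would give about 1 in 20). The highest library stood apart for Tnf in IkbkbCA (replicate 3, 59.8 CPM), Tnfsf9 in PS19 (replicate 3, 6.32 CPM), Il6 in IkbkbCA (replicate 5, 2.00 CPM), Il10 in IkbkbWT (replicate 3, 1.13 CPM) and Tgfb1 in tau (replicate 3, 59.3 CPM). The lowest library stood apart for Tgfb1 in IkbkbWT (replicate 5, 33.6 CPM).

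Tau and PS19 effects differed by a test of the difference itself for Tnfrsf1b (1.97 on the log2 scale) and Tgfb1 (1.72), both higher after tau, while cultured and adult microglia also differ in age, isolation and experiment.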

How the results depend on the processing

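No paired analysis was run, because the sources used here do not say whether libraries with the same replicate number belong together. In IkbkbWT and IkbkbCA, neuron markers were highest in replicates 4 and 5 (316 and 328 CPM, and 314 and 340 CPM). Oligodendrocyte markers were highest in replicate 3 of both (4970 and 1844 CPM). Ddx3y in replicates 4 and 5 was at 1.15 and 2.04 CPM in IkbkbWT but at 85.9 and 68.3 CPM in IkbkbCA. Over 656 refitted member values, 592 kept their direction and their side of the threshold, 28 lost and 23 gained a call, and 13 changed sign. Tnf, Tnfrsf1b and Tgfb1 after tau and Tnf in Ikbkb-/- stayed called in all fits without 1 library.

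Members called numbered 4 after tau and 2 with the outside-gene read share as a covariate. After tau it was 3 with total-count scaling, at least 10 counts in every library and Ddx3y as a covariate. It was 5 in the fit of 34 libraries, and 3 to 4 with 1 library left out. With microglia marker scaling it was 3, with Tnfrsf1a called lower. In PS19 the number was 0, and 2 with DESeq2, with no filter on low counts and in one fit of 34 libraries, 1 with scaling to the microglia markers, and 0 to 1 with 1 library left out. In IkbkbCA it was 0, and 1 with total-count scaling, DESeq2, no filter, a minimum of 10 counts per library, microglia marker scaling and the fit of 34 libraries, and 0 to 1 with 1 library left out; without the third library of both groups, or without the IkbkbWT libraries low in Ddx3y, it stayed 0 (Tnf 0.48 and 0.93). In Ikbkb-/- it was 1, and 2 with DESeq2, Ddx3y as a covariate and microglia marker scaling, 4 with no filter, and 1 to 2 with 1 library left out. For the IkbkbCA and Ikbkb-/- effects it was 2, and 1 with limma-voom or at least 10 counts in every library, and 1 to 2 with 1 library left out. For the tau and PS19 effects it was 2, and 1 with limma-voom, and 1 to 2 with 1 library left out. The cause of these shifts was not tested.

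Signs changed for Tgfb1 in IkbkbCA (0.0020 with RLE and with DESeq2, -0.12 to 0.092 without 1 library). With microglia marker scaling they changed for Tnfrsf1a after tau (-0.77), Tnfrsf1b in IkbkbCA (-0.18) and Tnfrsf1a and Tnfrsf1b in Ikbkb-/- (-0.12 and -0.087). Tnfrsf1a in Ikbkb-/- was -0.31 with Ddx3y as a covariate. Between tau and PS19 effects, Il12b was -0.15 with limma-voom and Tnf was -0.083 to 0.50 without 1 library.

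Counts over all genes also moved. After tau, 3108 genes were called, 1702 with Ddx3y and 948 with the outside-gene share as a covariate, and 9224 with microglia marker scaling (285 higher, 8939 lower, against 1506 and 1602). In PS19, 8 were called, and 0 (age as a covariate) to 375 (fit of 34 libraries) elsewhere. In IkbkbCA, 1692 were called, 22 with the share outside genes, 1047 without the IkbkbWT libraries low in Ddx3y and 4968 with microglia marker scaling (279 higher, against 855). In Ikbkb-/-, 1641 were called, 290 with Ddx3y, 515 in the fit of 34 libraries and 2681 with microglia marker scaling (401 higher, against 859). The fits added after seeing the data were marker scaling and those without 2 libraries.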
